A study of Mus musculus with 6 samples.

Results

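Transcripts of 10 receptors that restrain or assist T cell activation were compared between ESC-derived and normal mouse bone marrow cells. The genes were taken as a fixed list of symbols (Pdcd1, Ctla4, Lag3, Tigit, Havcr2, Cd160 and Btla, which encode inhibitory receptors, and Cd28, Icos and Cd226, which encode co-stimulatory receptors), matched through GENCODE M21 to 10 of the 55401 Ensembl gene IDs in the deposited count table. The list was chosen with earlier results of these data known. All 10 genes passed the filter on low counts. The study has 6 bulk RNA libraries of 2000 sorted cells each. The LSK group, 3 libraries, holds Lin-Sca-1+c-Kit+ cells, a marrow fraction enriched for blood stem and progenitor cells, taken from untreated C57BL/6 mice (6 to 8 weeks old). The ESC-derived group, 3 libraries, holds Lin-Sca-1+c-Kit- cells from the marrow of primary recipients that had received CD144+ cells sorted after differentiation of embryonic stem cells. All 6 are labelled as wild type. Which antibodies made up the Lin gate is not stated in the labels. The 2 groups thus differ in origin, in passage through a transplant recipient and in the c-Kit gate, and the effects of these cannot be told apart. The strain and age of the recipients, the cells that the recipients kept of their own, and whether animals were pooled are not stated in the labels, so the p-values measure the spread between libraries, which may be technical.

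T cells respond to antigen through the T cell receptor, and the response is tuned by a second layer of receptors. Co-stimulatory receptors such as CD28 and ICOS recruit lipid kinases and adaptors that add to the signal, whereas inhibitory receptors recruit phosphatases or compete for ligands. Several of these receptors share ligands. CTLA-4 opposes CD28 at CD80 and CD86, TIGIT opposes CD226 at the poliovirus receptor and nectin-2, and BTLA and CD160 both bind HVEM, the product of Tnfrsf14. Many inhibitory receptors are induced when T cells are activated, so that they are found on effector, memory and regulatory cells as well as on exhausted ones.

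Total estimated counts ran from 41580006 to 49269286 per library. LSK replicate 2 held the middle value of its group for 62.0% of the genes tested, against 18.4 and 18.01% for replicates 1 and 3 and 30.8 to 37.5% for each ESC-derived library in its own group. Counts of the 10 receptors are therefore also given without that library. The 12 T cell marker genes listed, all at 1 CPM (the count relative to the TMM-scaled library total) or more in both groups, summed to 121 to 129.5 CPM in the LSK libraries and 12067 to 13020 CPM in the ESC-derived libraries. Cd8a averaged 2.52 ± 0.504 and 1177 ± 85.4 CPM (mean ± SD, n = 3 in each group, as in all values of this form), and Cd3e averaged 2.61 ± 0.404 and 233.5 ± 24.95 CPM. Kit, the gene of the c-Kit gate, was at 48.7 ± 6.38 CPM in LSK cells, and the ESC-derived libraries held 12 counts of it in all. In such bulk samples, fewer cells of a type and less RNA per cell cannot be told apart.

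Of the 10 receptor genes, 9 were higher in ESC-derived cells in edgeR's quasi-likelihood test (adjusted p under 0.05), 0 were lower, and Btla did not pass. Among the 16211 genes tested, 14.8% were called higher and 15.2% lower. The same 9 receptor genes had no overlap between the groups, with every ESC-derived library above every LSK library. This held for 22.6% of the genes tested, and the opposite order, which none of the 10 showed, for 27.2%. The median log2 fold change was 3.73 over the 10 receptors and -0.07 over all genes tested. Because the list was chosen with earlier results known, these contrasts with all genes are descriptions and not a test of the list. By class, 6 of 7 inhibitory receptors rose, with a median of 2.66 over the 7, and 3 of 3 co-stimulatory receptors rose, with a median of 3.83. Without LSK replicate 2, 9 receptors were called higher, while the share of all genes called higher dropped to 8.61%.

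**Figure D1:**
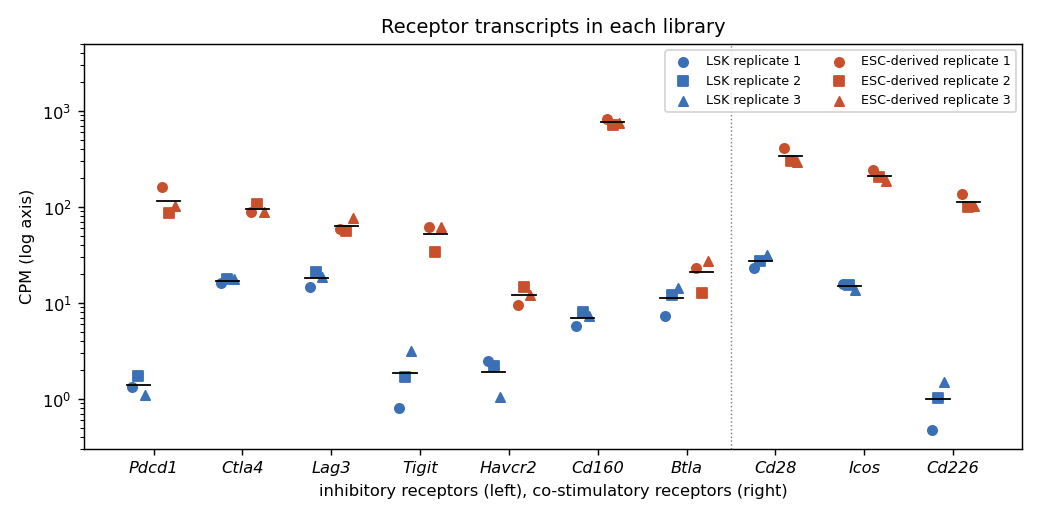
CPM of the 10 receptor genes in each library, on a log axis, with inhibitory receptors to the left of the dotted line and co-stimulatory receptors to the right. Points are libraries, black bars are means of 3 libraries, and the 2 colours overlap for Btla alone among the 10 genes.

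Cd160 encodes a receptor of cytotoxic lymphocytes that binds HVEM, and it had the highest level per length of the 10 in ESC-derived cells. The gene (ENSMUSG00000038304) lies on mm10 chromosome 3, 96798763 to 96829351, minus strand. It was measured at 5.71, 7.95 and 7.29 CPM in LSK replicates 1 to 3 and at 819, 722 and 749 CPM in ESC-derived replicates 1 to 3. Every ESC-derived library was far above every LSK library, and the ESC-derived libraries differ little from each other, the highest being 1.13 times the lowest. The log2 fold change was 6.77 ± 0.18 (SE, adjusted p = 3.85e-06). Pdzk1 overlaps Cd160 on the opposite strand and had 45, 203 and 118 counts in the ESC-derived libraries, where Cd160 had 34420, 30581 and 35442. The library kit does not mark strand.

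Pdcd1 encodes PD-1, a CD28-family receptor that recruits the phosphatase SHP-2. The gene (ENSMUSG00000026285, chromosome 1, 94038305 to 94052553, minus strand) stood at 1.32, 1.71 and 1.09 CPM in the LSK libraries and at 159.9, 87.0 and 102 CPM in ESC-derived replicates 1 to 3. ESC-derived replicate 1 was the highest, 1.84 times replicate 2, and every ESC-derived library was far above the LSK range. Pdcd1 rose by a log2 fold change of 6.40 ± 0.35 (adjusted p = 5.46e-05), from a mean of 1.37 ± 0.313 to 116 ± 38.4 CPM.

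Tigit encodes an inhibitory receptor of T and NK cells. The gene (ENSMUSG00000071552, chromosome 16, 43648867 to 43664146, minus strand) was at 0.804, 1.69 and 3.11 CPM in LSK cells and at 61.2, 34.2 and 61.8 CPM in ESC-derived cells. Its LSK libraries spread 3.87-fold around a low level. ESC-derived replicate 2 was the lowest of its group, as it was for Pdcd1, Cd160, Lag3, Btla and Cd226. That library was the highest for Ctla4 and Havcr2 and the middle one for Cd28 and Icos. The log2 fold change was 4.81 ± 0.57 (adjusted p = 0.0014).

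The sequences before the annotated starts of these 3 genes, the inhibitory receptors with the largest log2 fold changes, are shown because the genes rose together. They are the 250 bases upstream of each start in RefSeq (GRCm38.p6, the assembly of mm10), 5′ to 3′ on the gene's strand, with matches to any of 6 motifs in capitals. Cd160 has 2 annotated starts, and the window of its inner start lies within the gene, outside its GENCODE exons.
Cd160, outer start, chr3:96829352-96829601, minus strand: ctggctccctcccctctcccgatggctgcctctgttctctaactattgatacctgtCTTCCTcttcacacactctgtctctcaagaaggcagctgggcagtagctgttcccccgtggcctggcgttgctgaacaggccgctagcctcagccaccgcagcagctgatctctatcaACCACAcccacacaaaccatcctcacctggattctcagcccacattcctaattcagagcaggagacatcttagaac
Cd160, inner start, chr3:96814522-96814771, minus strand: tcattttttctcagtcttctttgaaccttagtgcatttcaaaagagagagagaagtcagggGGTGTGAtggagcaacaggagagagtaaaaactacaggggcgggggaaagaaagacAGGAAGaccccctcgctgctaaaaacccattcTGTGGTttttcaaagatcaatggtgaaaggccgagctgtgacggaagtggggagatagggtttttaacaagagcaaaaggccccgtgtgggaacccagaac
Pdcd1, chr1:94052554-94052803, minus strand: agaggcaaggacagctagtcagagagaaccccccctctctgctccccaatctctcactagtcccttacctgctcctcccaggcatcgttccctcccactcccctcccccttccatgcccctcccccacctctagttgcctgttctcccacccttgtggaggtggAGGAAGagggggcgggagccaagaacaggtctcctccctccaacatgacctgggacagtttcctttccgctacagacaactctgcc
Tigit, chr16:43664185-43664434, minus strand: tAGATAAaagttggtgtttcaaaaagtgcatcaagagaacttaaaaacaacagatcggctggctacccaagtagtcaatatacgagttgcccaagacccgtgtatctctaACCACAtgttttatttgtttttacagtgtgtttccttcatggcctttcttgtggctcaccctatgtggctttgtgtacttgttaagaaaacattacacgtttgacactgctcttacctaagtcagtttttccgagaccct

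A set of 6 motifs was searched on both strands, and no matches of different motifs overlapped in the windows printed. RefSeq windows were used for 6 of the 10 genes, 7 windows in all: those above and 1 each for Ctla4, Havcr2 and Btla. No window was used for Lag3, Cd28, Icos or Cd226, so the motif counts do not cover these genes. For Cd226 this follows from the search itself, which left out receptor windows on chromosome 18, where that gene lies. The shares among the 7 windows depend on this choice. The ETS motif AGGAAG was found in 6 of the 7 windows and in 29.6% of the 32526 promoter windows of the same length. The RUNX motif TGTGGT was found in 5 of 7 and in 14% of all, and its windows belong to Cd160 (both starts), Tigit, Havcr2 and Btla. The T-box motif TCACACC, present in 3.33% of all windows, was found among the 7 in the inner Cd160 window alone. Ctla4 had the only match to the NFAT core TGGAAA (18.6% of all windows). Havcr2 had the only match to the AP-1 motif TGANTCA (6.73%). Tigit had the only match to the GATA motif AGATAA (9.97%). Btla, the gene that did not pass, held RUNX and ETS matches as well. The last 22 bases of the Btla window lie in its GENCODE exons. Its ETS matches, at -23 to -18 and -17 to -12 bases from the start, overlap them. The Ctla4 window lies wholly within the gene, outside its GENCODE exons. A match is a string of letters and was not tested as a binding site.

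**Figure D2:**
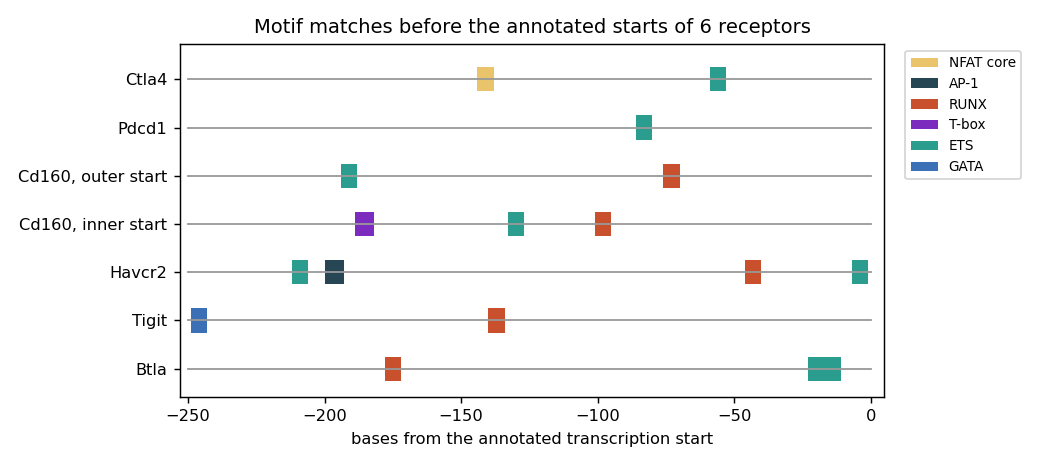
Positions of the motif matches in the 250 bases before 7 annotated starts of 6 receptor genes, in bases from the start. Each coloured block is a match on either strand, and the Pdcd1 window holds 1 block, an ETS match.

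Ctla4 encodes the inhibitory counterpart of CD28, which is stored inside activated T cells and is constitutive in regulatory T cells. The gene (ENSMUSG00000026011) lies on chromosome 1, 60887000 to 60915832, plus strand, 113.6 kb downstream of Cd28 and 62.1 kb upstream of Icos. It stood at 15.96, 17.7 and 17.5 CPM in LSK cells and at 88.2, 106 and 89.0 CPM in ESC-derived cells. Both groups were tight and apart, with a log2 fold change of 2.47 ± 0.16 (adjusted p = 9.76e-05). In LSK cells Ctla4 had 774, 808 and 806 counts. A processed pseudogene on the same strand, Rpl18-ps1, overlaps Ctla4 and was counted at 188 to 242 counts in the LSK libraries and 240 to 390 counts in the ESC-derived libraries.

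Lag3 encodes a CD4-related receptor that binds MHC class II and is also found on plasma cells and plasmacytoid dendritic cells. The gene (ENSMUSG00000030124, chromosome 6, 124904361 to 124911705, minus strand) was at 14.5, 20.9 and 18.7 CPM in LSK cells and at 58.4, 55.5 and 76.3 CPM in ESC-derived cells. The groups did not overlap, and the log2 fold change of 1.81 ± 0.22 (adjusted p = 0.00157) was the smallest of the 9 that passed. The plasma cell markers listed summed to 4205 to 4926 CPM in the LSK libraries and 86.8 to 102 CPM in the ESC-derived libraries, with Tnfrsf17 at 0 counts in the latter. Jchain alone held 3949 to 4568 CPM of the LSK sums. Jchain, Sdc1, Tnfrsf17, Mzb1 and Xbp1 (128.6 ± 14.1 to 68.7 ± 3.53 CPM) were called lower. Prdm1, of the same list, was called higher (4.10 ± 1.88 to 14.8 ± 3.84 CPM). The part of plasma cells in the Lag3 level was not tested.

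Havcr2 encodes TIM-3, a receptor of terminally differentiated T cells that is also present on monocytes and dendritic cells. The gene (ENSMUSG00000020399, chromosome 11, 46454935 to 46481255, plus strand) was low in both groups, at 2.47, 2.19 and 1.05 CPM in LSK cells and at 9.42, 14.5 and 12.2 CPM in ESC-derived cells. The lowest ESC-derived library was still above the highest LSK library, and the log2 fold change was 2.66 ± 0.49 (adjusted p = 0.00736). The monocyte, macrophage and neutrophil markers summed to 1638 to 1811 CPM in LSK cells and 1632 to 3422 CPM in ESC-derived cells. The members of that sum went opposite ways: the neutrophil genes S100a8 (164.7 ± 4.08 to 1457 ± 457 CPM) and S100a9 were called higher, Cd68 was called lower (47.4 ± 7.36 to 21.7 ± 3.63 CPM), and the other 7 did not pass. Csf1r, a defining gene of monocytes and macrophages, averaged 7.91 ± 1.79 and 3.01 ± 1.15 CPM and did not pass (adjusted p = 0.0767, range over 16 alternatives 0.00359 to 0.374). Dendritic cell markers summed to 884 to 1030 CPM in LSK and 16.6 to 27.7 CPM in ESC-derived cells, with Siglech and Clec9a at 0 counts in the latter. Flt3 alone held 861 to 1005 CPM of the LSK sums and was called lower, as were Siglech and Clec9a. Itgax (3.31 ± 0.975 to 12.3 ± 8.90 CPM), Zbtb46, Xcr1 and Batf3 did not pass. The part of such cells in the Havcr2 level was not tested.

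Btla, whose product restrains B and T cells through HVEM, was the receptor that did not pass. The gene (ENSMUSG00000052013, chromosome 16, 45224315 to 45257670, plus strand) was at 7.26, 12.2 and 14.4 CPM in LSK cells and at 23.1, 12.5 and 27.6 CPM in ESC-derived replicates 1 to 3. The second of these fell below LSK replicate 3, so the groups overlap. The log2 fold change was 0.90 ± 0.40 (adjusted p = 0.147), and over 16 alternatives the adjusted p ran from 0.069 to 0.833. B cell markers, 7 of 7 at 1 CPM or more in LSK cells and 4 of 7 in ESC-derived cells, summed to 524 to 569 and 4.16 to 13.3 CPM. Their part in the Btla level was not tested.

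Cd28 encodes the main co-stimulatory receptor of naive T cells. The gene (ENSMUSG00000026012, chromosome 1, 60716800 to 60773359, plus strand) was at 23.0, 27.1 and 31.7 CPM in LSK cells and at 414, 304 and 296 CPM in ESC-derived cells. The groups did not overlap, and the log2 fold change was 3.63 ± 0.20 (adjusted p = 5.9e-05). Icos, the inducible CD28 relative that supports helper and innate lymphocytes (ENSMUSG00000026009, chromosome 1, 60977927 to 61000320, plus strand), was at 15.7, 15.3 and 13.5 CPM in LSK cells and at 244, 205 and 184 CPM in ESC-derived cells. Both Icos and Cd28 were highest in ESC-derived replicate 1, with a log2 fold change for Icos of 3.83 ± 0.16 (adjusted p = 2e-05). The neighbours Cd28, Ctla4 and Icos, all on the plus strand of chromosome 1, rose by 12.4-fold, 5.54-fold and 14.2-fold.

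Cd226 encodes DNAM-1, an activating receptor that supports killing by T and NK cells. It stood at 0.474, 1.007 and 1.48 CPM in LSK cells and at 137, 101 and 102 CPM in ESC-derived cells. The LSK libraries held only 23, 46 and 68 counts of this gene, and the ESC-derived libraries 5755, 4263 and 4823. The log2 fold change of 6.84 ± 0.46 (adjusted p = 0.000131) was the largest of the 10, and those of Cd160 and Pdcd1 lay within 1 SE of Cd226's.

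**Figure D3:**
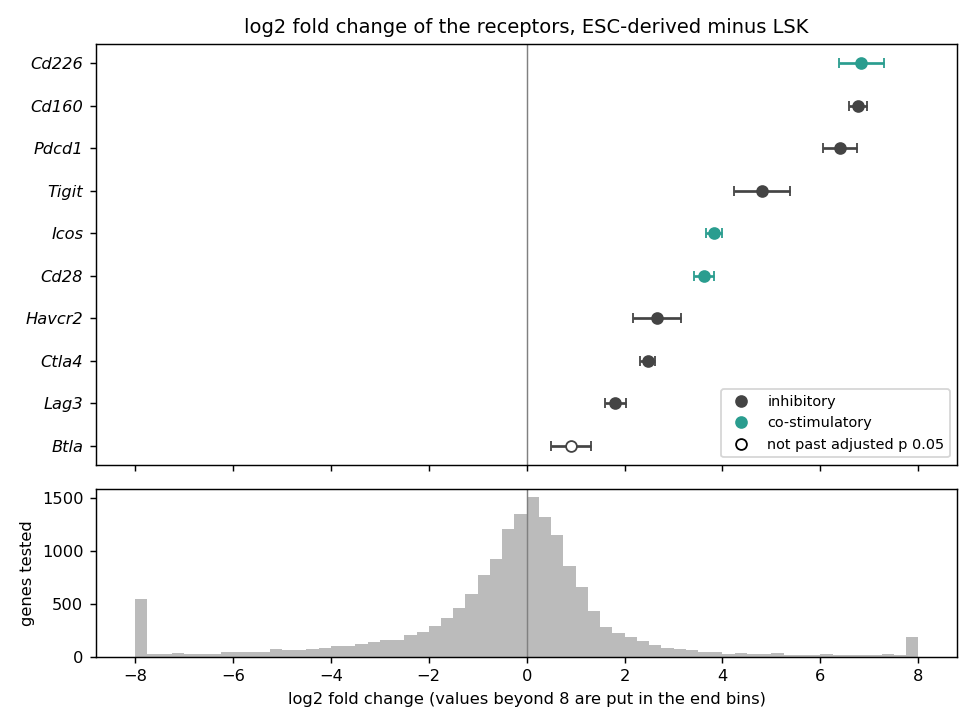
Upper panel: log2 fold change, ESC-derived minus LSK, of the 10 receptors, with bars of 1 SE. Lower panel: the same quantity for the 16211 genes tested, whose median is -0.07. Btla, the open point, has the lowest of the 10 values, and Cd226, Cd160 and Pdcd1 lie above 6.

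Levels of different genes were compared per length, as CPM per kb of the union of annotated exons. In ESC-derived cells Cd160 led with 289 ± 18.9 CPM per kb, 4.69 times Icos, the next gene. Icos (61.5 ± 8.87), Pdcd1 (60.3 ± 19.9), Tigit (57.0 ± 17.2) and Cd28 (55.2 ± 10.7) followed, and neighbours among these 4 overlapped over the libraries. Ctla4 (40.6 ± 4.401) was below Cd28 and Lag3 (30.0 ± 5.34) below Ctla4, with no overlap in either step. Lag3 overlapped with Cd226 (23.1 ± 4.21), and Btla (6.20 ± 2.27) and Havcr2 (4.43 ± 0.939) overlapped at the bottom of the order.

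The order in LSK cells was another one. Lag3 (8.54 ± 1.53 CPM per kb) and Ctla4 (7.32 ± 0.411) were the highest there and overlapped, and Ctla4 was above Cd28 (4.45 ± 0.717) with no overlap. Cd28, Icos (4.33 ± 0.346), Btla (3.32 ± 1.07), Cd160 (2.64 ± 0.435) and Tigit (2.03 ± 1.27) each overlapped with the next. Pdcd1 (0.711 ± 0.162) and Havcr2 (0.699 ± 0.278) overlapped, and Cd226 (0.202 ± 0.103) was last, below Havcr2 with no overlap.

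Cd160 alone made up 44.1, 48.3 and 46.2% of the summed receptor level per length in ESC-derived replicates 1 to 3, and 7.47, 8.19 and 7.43% in LSK replicates 1 to 3. The 7 inhibitory genes together held 76.2 to 80.0% of that sum in ESC-derived cells and 70.8 to 75.2% in LSK cells. Leaving Cd160 out, the inhibitory share was 55.7 to 62.8% in ESC-derived cells and 68.5 to 73.0% in LSK cells, so the group with the higher inhibitory share turned with this gene. With the length of the longest transcript in place of the union of exons, Cd28 moved from the fifth to the second place in ESC-derived cells and Cd160 stayed first.

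**Figure D4:**
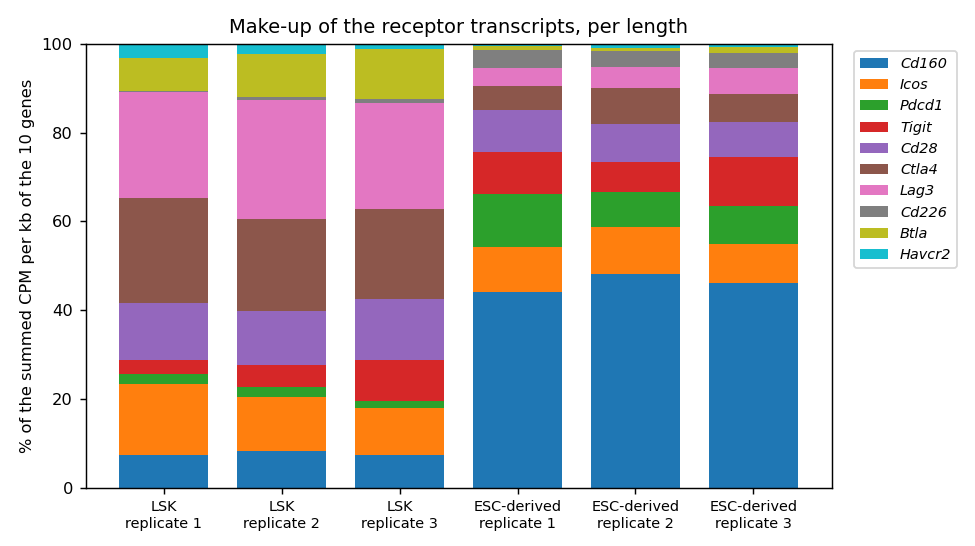
Share of each receptor gene in the summed CPM per kb of the 10 genes, as stacked bars that add to 100% in each of the 6 libraries. Cd160, the lowest block, takes 44.1 to 48.3% of each ESC-derived bar and 7.43 to 8.19% of each LSK bar, where Lag3 and Ctla4 are the largest blocks.

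Receptors that share ligands were compared as ratios per length, whose ranges did not overlap between the groups. How often other pairs of genes show this was not tested. Ctla4 was 1.83, 1.71 and 1.45 times Cd28 in LSK replicates 1 to 3 and 0.56, 0.92 and 0.79 times Cd28 in ESC-derived replicates 1 to 3. That Ctla4 was the higher in LSK cells rests on the exon unions, 2330 bases for Ctla4 and 6122 for Cd28. Before division by length, Cd28 was the higher in all 6 libraries. Tigit was 9.02, 8.91 and 11.2 times Cd226 in LSK cells and 2.38, 1.81 and 3.23 times Cd226 in ESC-derived cells. Per length, Tigit was thus the higher of the pair in all 6 libraries. In ESC-derived cells this order rests on the exon unions, 919 bases for Tigit and 4891 for Cd226. Before division by length, Cd226 was the higher there. For the HVEM receptors, both of which are listed as inhibitory, Btla was 0.989, 1.19 and 1.53 times Cd160 in LSK cells and 0.0219, 0.0135 and 0.0286 times Cd160 in ESC-derived cells. An exact two-sided permutation test of each log2 ratio gave p = 0.1 (adjusted p = 0.1 over the 3 ratios), the smallest value that 3 against 3 libraries can give, so none can pass 0.05.

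Levels were also set against Cd3e, which encodes CD3 epsilon. Relative to Cd3e per length, Ctla4 stood at 1072 to 1303% in the LSK libraries and 59.3 to 88.1% in the ESC-derived libraries, and Lag3 at 1295 to 1398% and 43.3 to 64.6%. Cd28, Icos and Btla were also several times above Cd3e in LSK cells. Cd160 was at 404 to 425% of Cd3e in LSK cells and 485 to 527% in ESC-derived cells. Pdcd1 was at 82.6 to 130.1% and 86.9 to 129.7%, and Cd226 was at 18.4 to 44.3% and 37.2 to 43.8%, and both ranges overlap between the groups. In the LSK libraries, Cd3e itself was at 2.14, 2.89 and 2.79 CPM.

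Markers of lymphocyte types in which some of these receptors are known to be high were read beside them. Foxp3, which defines regulatory T cells, was at 0.289, 0.153 and 1.68 CPM in LSK cells and at 0.642, 6.64 and 4.94 CPM in the ESC-derived libraries, and it did not pass (adjusted p = 0.185, range over 16 alternatives 0.0808 to 0.408). ESC-derived replicate 1, the lowest in Foxp3, was the highest of its group in Pdcd1, Cd160, Cd28, Icos and Cd226. The same library was the lowest in Ctla4 and Havcr2 and the middle one in Lag3, Tigit and Btla. Cxcr5, a receptor of follicular helper T cells and B cells, averaged 4.33 ± 0.667 and 4.72 ± 5.09 CPM and did not pass (adjusted p = 0.948, range over 16 alternatives 0.417 to 1). Ncr1, a defining gene of NK cells, rose from 2.32 ± 0.817 to 20.3 ± 13.6 CPM (log2 fold change 3.13 ± 0.59), and the 8 NK markers summed to 6.04 to 7.64 CPM in LSK and 122 to 136 CPM in ESC-derived cells, with Klra4 at 0 counts in both groups and Klra8 at 0 in ESC-derived cells. Trdc, the constant gene of the T cell receptor delta chain, rose by 3.48 ± 0.63, to 6.998 ± 2.53 CPM. The 6 regulatory T cell markers summed to 112 to 131 CPM in LSK and 443 to 574 CPM in ESC-derived cells. Tnfrsf18, itself a co-stimulatory receptor, held 356 to 458 CPM of the latter sum. It rose, as did Nrp1, and Foxp3, Il2ra, Ikzf2 and Ikzf4 did not pass. The 5 follicular helper T cell markers summed to 22.6 to 53.3 and 168 to 206 CPM, of which Sh2d1a made up 154 to 199 CPM in the ESC-derived libraries. Cxcr5, Bcl6 and Il21 did not pass, and Pou2af1 was called lower (22.5 ± 11.8 to 2.03 ± 2.02 CPM). The gamma delta T cell markers summed to 10.1 to 22.1 and 1331 to 1406 CPM, nearly all from constant genes of the T cell receptor gamma chain. The ILC2 markers summed to 20.7 to 33.5 and 409 to 434 CPM, carried by Klrg1, Gata3 and Rora. Il17rb and Areg did not pass. Il5, Il1rl1 and Il13 were left out by the filter on low counts. Il5 had 0 counts in LSK cells and 140, 121 and 0 counts in ESC-derived replicates 1 to 3. Il1rl1 had 4 counts in all LSK libraries and 112 in all ESC-derived libraries, and Il13 had 4 and 0. How far each cell type contributes to a receptor's level was not tested.

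Genes around the receptors were then read from 6 lists. Of 14 ligand genes, 13 were tested, 2 rose, 2 fell and 9 did not pass, with a median log2 fold change of 0.06. The rises were Lgals3, a galectin that can bind LAG-3 (5.02 ± 0.12), and Pdcd1lg2, which encodes the PD-1 ligand PD-L2 (2.30 ± 0.29, from 6.37 ± 1.52 to 31.5 ± 5.04 CPM). The falls were Ceacam1, a TIM-3 partner (-5.81 ± 1.26), and Lgals9, a galectin ligand of TIM-3 (-0.54 ± 0.12, from 594 ± 44.0 to 409 ± 49.6 CPM). Cd274, which encodes the other PD-1 ligand, stood at 13.3 ± 1.87 and 13.9 ± 7.21 CPM. Cd80, Cd86, Icosl, Pvr, Nectin2 and Tnfrsf14, ligands of the paired receptors and of ICOS, were among those that did not pass. Leaving out LSK replicate 1 or 2, or ESC-derived replicate 2, left 1 ligand fall.

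Among 15 other inhibitory receptors of lymphocytes, 8 rose, 2 fell and 5 did not pass (median 1.36). Klrg1, a lectin-like receptor of effector T and NK cells, rose by 9.99 ± 0.46, from 0.187 ± 0.141 to 191 ± 13.5 CPM, and Lilrb4a, an immunoglobulin-like receptor, rose by 4.03 ± 0.26. Cd72, a B cell receptor (-1.13 ± 0.16), and Cd300a, a lipid-binding receptor of myeloid cells and lymphocytes (-2.37 ± 0.62), fell. Leaving out any of the 3 LSK libraries, or ESC-derived replicate 2 or 3, left 1 fall. Of 8 co-stimulatory genes of the TNF and TNF receptor families, 6 rose, 0 fell and 2 did not pass (median 2.81). Tnfrsf25, the receptor DR3, rose by 6.15 ± 0.33 and Cd40lg, the ligand of CD40, by 6.02 ± 0.29. Cd27, a receptor shared by lymphocytes and progenitors, stood at 211 ± 12.5 and 209.6 ± 7.93 CPM.

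Of 18 genes listed as restraining T cell receptor signals inside the cell, 11 rose, 2 fell and 5 did not pass (median 1.06). Sh2d1a encodes SAP, an adaptor of SLAM receptors that is known mainly for activating roles, and rose by 9.30 ± 0.47. Sit1, a transmembrane adaptor that binds SHP-2, rose by 6.25 ± 0.29, from 2.27 ± 0.690 to 173 ± 19.6 CPM. Among the phosphatases of the list, Ptpn22 rose by 2.41 ± 0.13 and Ptpn2 by 0.47 ± 0.13. Inpp5d, which encodes the lipid phosphatase SHIP-1, fell by 1.06 ± 0.17 on the log2 scale. Ptpn11, which encodes SHP-2, fell by 0.79 ± 0.19, and Ptpn6, which encodes SHP-1, stood at 263 ± 8.84 and 340.3 ± 45.96 CPM (adjusted p = 0.0644). Leaving out any of the 3 LSK libraries, or ESC-derived replicate 1, left 1 fall, and Ptpn11 was the gene that lost its call there.

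Among 18 signalling partners of CD28 and ICOS, 6 rose, 0 fell and 12 did not pass (median 0.17). Grap2, the adaptor GADS, was among the rises (4.93 ± 0.15), whereas the broadly expressed Grb2, Akt1 and Vav1 were among the genes that did not pass. Of 22 transcription factors tied to activation or exhaustion of T cells, 12 rose, 3 fell and 7 did not pass (median 1.68). Id2, which supports effector lymphocytes, rose by 5.43 ± 0.12, and Tbx21, the effector regulator T-bet, rose by 6.47 ± 0.29, from 1.40 ± 0.402 to 124 ± 17.1 CPM. Nr4a1, a factor induced by antigen receptor signals, went from 1356 ± 94.4 to 155 ± 14.9 CPM (log2 fold change -3.13 ± 0.12), and Bach2, a repressor of effector programs, fell by 2.58 ± 0.76. The other fall was that of Id3, a relative of Id2 (-1.31 ± 0.39). Bach2 lost its call when replicate 2 or 3 of either group was left out. Among these factors 1 fall remained without LSK replicate 2 or ESC-derived replicate 2, and 2 falls without each of the other 4 libraries.

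**Figure D5:**
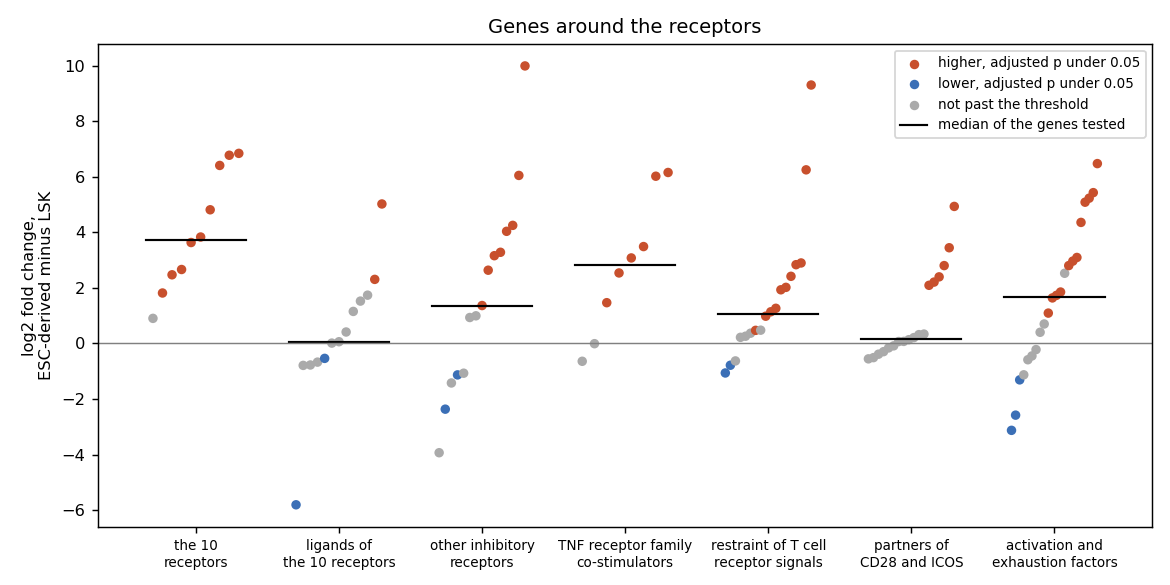
Log2 fold change, ESC-derived minus LSK, of the 10 receptors and of the tested genes of 6 lists around them. Points are genes, coloured by call, and black lines are medians, which run from 0.06 for the ligands to 3.73 for the 10 receptors.

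The genes most like the 3 receptors with the highest mean CPM in ESC-derived cells were taken as those with the smallest Euclidean distance in log2(CPM + 1) over the 6 libraries, among 12695 protein-coding genes. For Cd160 they were Cxcr3, a chemokine receptor of effector T cells (distance 0.864), and Sh2d2a, a T cell adaptor (1.48). For Cd28 they were Camp, a neutrophil granule gene (0.673), and Bcl2, a survival gene (0.714). For Icos they were Gzma, a granzyme (0.612), and Acp5, a phosphatase (0.782). With 2 groups of 3 libraries, such a distance reflects little beyond the mean level in each group.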

How the data were processed

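Bulk RNA of 6 libraries (3 LSK, 3 ESC-derived) was analysed from 1 deposited table of estimated counts per Ensembl gene ID, whole numbers that the authors did not normalize. The SMART-Seq v4 and Nextera XT kits were used, per the labels' protocols, and do not mark strand. HISAT, StringTie and the build mm10 are named in the submitters' processing notes, with no version or setting. The table's header holds the 6 column names in 1 field, and columns were assigned in the order of those names. Of the deposited values from 1 to 20 counts, 40.1 to 47.2% were divisible by 4, so a fragment is often worth about 4 counts and the floor for a group was set at 12 counts. Symbols, positions and lengths come from GENCODE M21, which matched 55141 gene IDs and missed 260. Promoter sequences come from RefSeq (GRCm38.p6).

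Genes were filtered with filterByExpr, scaled with TMM and tested with edgeR 4.0.16 (R 4.3.3, robust quasi-likelihood F test, two-sided, Benjamini-Hochberg over all genes tested, threshold 0.05, no replicate block), after a test on simulated data. CPM are on the TMM-scaled libraries, and the SE is the size of the log2 fold change over the square root of F. The 16 alternatives were DESeq2 1.42.0, limma-voom (limma 3.58.1), upper quartile scaling, RLE scaling, values divided by 4, scaling by library totals, each library left out, a block for the replicate number, omission of the low-count filter, a filter of 50 counts in 3 libraries, and testing for changes beyond 2-fold. Ratios of receptors that share ligands were added after seeing the data. Members and lists were chosen with earlier results of these data known. The genes named are the 10 receptors, up to 2 rises and 2 falls of each list by adjusted p, 8 fixed markers and the genes of most like pattern. A gene that this rule names is not reported here. Other genes were named after their values were seen.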

Additional observations from a re-analysis of the deposited data

How the results depend on the processing

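All 16 alternatives left 9 of the 10 receptors higher and 0 lower, and Btla did not pass in any of the 16. Genes called in the whole table numbered 2395 higher and 2466 lower. The counts were 971 and 1383 with the test against a 2-fold change, 3972 lower with DESeq2, 1488 lower with a replicate block, and 1466 to 2163 higher and 1250 to 2440 lower with a library left out, the lowest of both without LSK replicate 2.

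With the test against a 2-fold change, the ligand falls numbered 1, those of other inhibitory receptors 0, those of the restraining genes 0 with 7 rises, and those of transcription factors 1. With the replicate block, the falls of the restraining genes and of the transcription factors numbered 1 each. DESeq2 gave 4 falls of other inhibitory receptors and 2 of the CD28 and ICOS partners, and library totals only gave 1 of these partners. With a library left out, the falls numbered 1 to 2 for ligands, 1 to 3 for other inhibitory receptors and for the restraining genes and 1 to 2 for transcription factors. Without LSK replicate 2 the rises numbered 8 for the restraining genes, 7 for other inhibitory receptors, 5 for the TNF family and 11 for transcription factors. With the length of the longest transcript, 6 of the 10 receptors kept their place in the ESC-derived order, the inhibitory share was 75.1% in ESC-derived and 71.1% in LSK cells, and Ctla4 was 1.42 times Cd28 in LSK cells. With a library left out, 7 to 10 receptors kept their place. The log2 fold change of Cxcr5, which did not pass, was 0.12 and changed sign with limma-voom (-1.002), with library totals only (-0.093) and with the replicate block (-0.86), and it ran from -1.14 without ESC-derived replicate 3 to 0.69 without ESC-derived replicate 1.

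Library totals only moved the median log2 fold change of all genes to -0.31 and that of the receptors to 3.48. Deviations of libraries with the same replicate number correlated at 0.004, 0.05 and 0.006, so the numbers do not pair the libraries, and the block is reported for completeness. No receptor call changed under the block. Counting error limits Cd226, Tigit, Pdcd1 and Havcr2 in LSK cells, where a library held 23 to 143 counts of each.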
